A study of Rattus norvegicus with 18 samples.

Results

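The miR-379 to miR-410 cluster is a run of microRNA (miRNA) hairpins in the imprinted Dlk1-Dio3 region, which lies on chromosome 6 in the rat. Its miRNAs were taken by name: every mature miRNA of the count table that carried one of the cluster's hairpin numbers, with any letter or arm suffix. This gave 66 of 753 miRNAs, from 35 hairpin names. There were 31 from the 5′ arm of their hairpin (5p), 31 from the 3′ arm (3p) and 4 with no arm in the name. RefSeq placed 65 of them on assembly GRCr8, between chr6:134543460-134579828, a span of 36369 bases, and 62 were annotated on the plus strand. GRCr8 is not the assembly on which the counts were made.

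Small RNA libraries were made from dorsal root ganglia (DRG), which hold the cell bodies of sensory neurons, at cervical levels 6 to 8 of 18 adult Lister Hooded rats, with 6 rats per group. Naïve rats were unoperated and received no vector. In bPYX+GFP and bPYX+NT3 rats, both corticospinal tracts were transected in the medullary pyramids (bilateral pyramidotomy, bPYX), and an adeno-associated viral vector of serotype AAV1, with the ubiquitous CMV promoter, was injected a day later into the forelimb flexor muscles of one side. The vector encoded green fluorescent protein (GFP) or human neurotrophin-3 (NT3), a growth factor for proprioceptive neurons. Ganglia were taken 10 weeks after injury and those of the treated side were pooled within each rat, so 1 library is 1 rat. Because naïve rats had neither surgery nor vector, injury, surgery and vector cannot be told apart in the comparisons with naïve rats. bPYX+GFP and bPYX+NT3 rats differ in the encoded protein.

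The cluster is transcribed from the maternal chromosome as long noncoding RNA, from which many hairpins are cut. Each hairpin can give a mature miRNA from either arm, and usually one arm is loaded into Argonaute proteins while the other is degraded. A mature miRNA pairs with target messenger RNAs mainly through its seed, bases 2 to 8 from the 5′ end, and lowers their translation and stability. The cluster is abundant in brain and placenta. Its best known member, miR-134, limits the growth of dendritic spines through the kinase Limk1, and in hippocampal neurons the cluster is induced by activity through the transcription factor Mef2.

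The sequences on which the results below turn are shown first, as given by RefSeq for GRCr8, 5′ to 3′, with the seed in capitals. The first set holds both arms of miR-379, whose arms differed in behaviour, and miR-411-3p. miR-411-3p matches miR-379-3p over 20 bases with 1 substitution, U11C, counted from the 5′ end of miR-379-3p. It starts 1 base later in the shared stretch, so that the seeds of the pair are offset. Reads of such near-identical miRNAs can be shared between them by alignment, and the counts of the less abundant one are uncertain.
miR-379-5p: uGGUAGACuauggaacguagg
miR-379-3p: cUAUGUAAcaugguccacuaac
miR-411-3p: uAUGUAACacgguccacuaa
They lie at chr6:134543460-134543480, chr6:134543496-134543517 and chr6:134544639-134544658, all on the plus strand.

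The second set holds miR-381-3p, miR-300-3p and miR-539-3p. The RefSeq entry of miR-381-3p has 18 bases. Across these it differs from miR-300-3p at 1 base, which lies in the seed (G4A, counted from the 5′ end of miR-300-3p), so the seeds differ. Reads of this near-identical pair can also be shared by alignment, so their counts may not be fully separate, which was not tested. miR-539-3p shares the seed of miR-381-3p.
miR-381-3p: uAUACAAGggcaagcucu
miR-300-3p: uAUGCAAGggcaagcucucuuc
miR-539-3p: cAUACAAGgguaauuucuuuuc
They lie at chr6:134562422-134562439, chr6:134559968-134559989 and chr6:134563646-134563667 on the plus strand.

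The third set holds the other miRNAs that are described by rat below, miR-496-3p, miR-667-5p and miR-323-5p.
miR-496-3p: aGUAUUACauggccaaucucc
miR-667-5p: cGGUGCUGguggagcagugagcac
miR-323-5p: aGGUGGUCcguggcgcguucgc
They lie at chr6:134575097-134575117, chr6:134555351-134555374 and chr6:134546959-134546980 on the plus strand.

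The fourth set is the one seed shared by 3 counted cluster miRNAs. All 3 are 5p arms, and all 3 were low, with means between 4.39 and 8.28 counts per M miRNA counts (CPM, after the TMM scaling of library sizes by edgeR) over the 18 rats.
miR-410-5p: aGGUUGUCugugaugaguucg
miR-494-5p: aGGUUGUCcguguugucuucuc
miR-496-5p: aGGUUGUCcaugguguguuc
They lie at chr6:134579773-134579793, chr6:134550130-134550151 and chr6:134575062-134575081 on the plus strand. The members had 59 different seeds in all, and only 5 seeds were held by more than 1 member. In 2 of these 5 groups at least 2 members were abundant enough to be tested.

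The libraries held 4.70 ± 0.66 M miRNA counts (SD, n = 18), with a range from 3.88 to 6.92 M. bPYX+GFP replicate 3 was the deepest. The ganglia are mixed tissue. The sensory neuron markers miR-183, miR-96 and miR-182, given by 5 mature miRNAs of which 4 were tested, summed per M counts to 26699 ± 2326 in naïve rats, to 30719 ± 2597 with GFP and to 31117 ± 2306 with NT3 (SD, n = 6), with ranges of 23173 to 28917, 26540 to 33797 and 28410 to 34532. In bPYX+GFP against naïve 2 of the 4 had an unadjusted p under 0.05 (21.2% of all 373 miRNAs tested), in bPYX+NT3 against bPYX+GFP none (8.58% of all) and in bPYX+NT3 against naïve 1 (13.7% of all). Of the muscle markers miR-1, miR-133a, miR-133b and miR-206, 2 of 8 rows were tested, miR-133b-3p and miR-206-3p. The list summed to between 68.0 and 305.9 per M, nearly all from these 2, and neither had an unadjusted p under 0.05 in any comparison. The defining rows miR-1-3p and miR-133a-3p were at 0, so this sum does not measure the muscle miRNAs as a whole. A separate row, miR-1b, which the list does not hold, was abundant, with 8629 ± 608 CPM in naïve rats, 9453 ± 830 CPM with GFP and 10614 ± 1819 CPM with NT3 (SD, n = 6). In bPYX+NT3 against naïve miR-1b had a log2 fold change of 0.30 ± 0.10 (edgeR unadjusted p = 0.0121, adjusted p = 0.247). Of the 8 Schwann cell and satellite glia miRNAs 3 were tested, 1 had an unadjusted p under 0.05 in bPYX+GFP against naïve and none in the other comparisons, and their sum ranged from 6300 to 11489 per M. The fibroblast and connective tissue miRNAs (7 of 8 tested) summed to between 42732 and 70587 per M, with an unadjusted p under 0.05 for 2 in bPYX+GFP against naïve, 1 in bPYX+NT3 against bPYX+GFP and none in bPYX+NT3 against naïve. The general neuron markers (6 of 12 tested) summed to between 7729 and 11098 per M, with 1 such p, in bPYX+NT3 against naïve. Blood and immune miRNAs (7 of 8 tested, 337.5 to 1533 per M) and the endothelial miR-126 (1 of 3 tested, 20982 to 28511 per M) had none. Defining rows of other lists were at 0 as well, among them miR-183-5p, miR-338-3p, miR-338-5p and miR-9a-3p, so the sums are of the rows with counts. The part of these in the results below was not tested. In bulk ganglia, fewer cells of a type and less RNA per cell cannot be told apart.

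Of the 66 cluster miRNAs, 55 had at least 1 count, from 32 hairpin names, and 48 passed the detection filter for testing (a count above 10 in 6 libraries or more). These were 21 5p arms, 25 3p arms and the 2 armless names miR-495 and miR-668. The 7 counted below the filter were miR-380-5p, miR-758-5p, miR-1193-5p, miR-376c-5p, miR-381-5p, miR-544-3p and miR-679, whose totals over the 18 libraries ran from 9 (miR-380-5p) to 137 (miR-1193-5p). The 11 with no count in any library were miR-299a-5p, miR-299a-3p, miR-299b-5p, miR-299b-3p, miR-376a-3p, miR-382-3p, miR-539-5p, miR-369-5p, miR-409a-3p, miR-409b and miR-544-5p.

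The members at 0 had a feature of the annotation in common. Of these 11, 10 overlap a mature miRNA annotated on the opposite strand in RefSeq, and miR-544-5p does not. miR-299a-3p, for example, overlaps miR-299b-5p by 19 bases, and miR-409a-3p overlaps miR-409b by 20 bases. Among the 11 members with an opposite-strand miRNA, miR-380-5p alone had counts, with 9 in all. The same held in the whole table, in which, among miRNAs with a RefSeq position, 82 of 93 with an opposite-strand miRNA (88.2%) had no count, compared with 81 of 595 without one (13.6%). Reads that fitted more than 1 annotated feature were set aside by the authors' counting as ambiguous and made up 2.61 to 3.72% of the reads of a library. Whether strand was used in counting is not given in the sources used here, and the part of the overlap in the zeros was not tested. The 0 values of these 11 members, miR-544-5p included, are not read here as a measure of expression.

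The cluster took a small and even share of the miRNA counts. It held 2.38 ± 0.13% in naïve rats, 2.36 ± 0.07% with GFP and 2.41 ± 0.14% with NT3 (SD, n = 6). The lowest, median and highest naïve rats had 2.19, 2.37 and 2.53%, the bPYX+GFP rats 2.27, 2.38 and 2.42%, and the bPYX+NT3 rats 2.24, 2.43 and 2.57%. The 3 groups overlapped, and the 18 rats lay within 2.19 to 2.57%. The 5p arms gave 1.49 ± 0.09, 1.50 ± 0.06 and 1.53 ± 0.12% of miRNA counts in the 3 groups in the same order, and the 3p arms 0.772 ± 0.037, 0.752 ± 0.045 and 0.776 ± 0.051%. No p is given for these sums, since the members were chosen with results known.

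**Figure D1:**
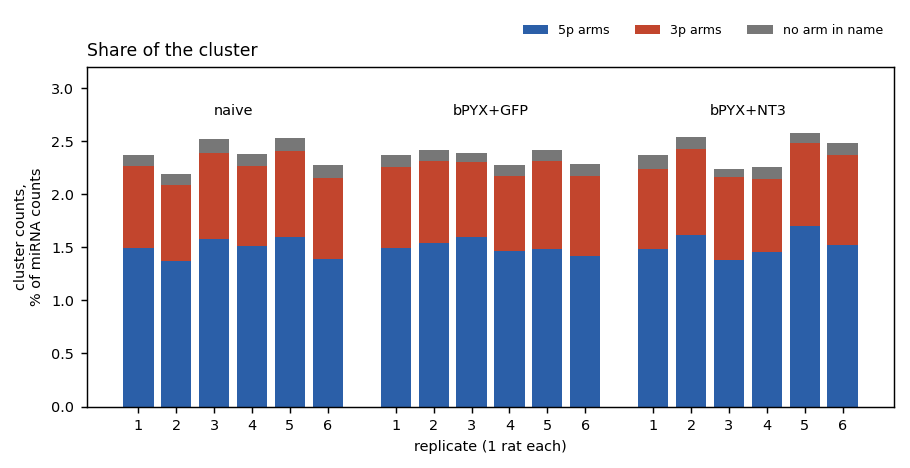
Cluster counts as a percentage of the miRNA counts of each library (y axis), 1 bar per rat and replicate number (x axis), in 3 groups of 6, stacked by arm. The bars reach from 2.19 to 2.57% and the 5p arms make up the larger part in every rat.

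Among the 48 tested members the mean levels spanned 2018-fold. miR-379-5p, the first mature miRNA of the cluster, was the most abundant, with a mean of 4644 CPM over the 18 rats and 19.5% of all cluster counts. The 5 most abundant members gave 55.8%, the 10 most abundant 79.3% and the 20 most abundant 95.5% of the cluster counts. After miR-379-5p came miR-485-5p with a mean of 2727 CPM, miR-411-5p with 2221, miR-541-5p with 1889, miR-381-3p with 1840, miR-543-3p with 1401, miR-382-5p with 1315 and miR-495 with 1078 CPM. These 8 were the members above 1000 CPM, 5 from the 5p arm, 2 from the 3p arm and 1 with no arm in its name. miR-323-3p (964 CPM) and miR-300-3p (847 CPM) completed the 10 most abundant. Of the other tested members, 16, miR-323-3p and miR-300-3p among them, lay between 100 and 1000 CPM, 13 between 10 and 100 CPM, and 11 below 10 CPM. The 7 counted below the filter were lower still and are not in these counts.

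miR-134-5p, the member with the known role at dendritic spines, was at 541 ± 66.0 CPM in naïve rats, 527 ± 44.3 CPM with GFP and 533 ± 50.0 CPM with NT3 (SD, n = 6). Its lowest rat had 444 CPM and its highest 625 CPM, both naïve, so the injured groups lay inside the naïve range. The last hairpin of the cluster, miR-410, was near the bottom of the order, with miR-410-3p between 2.70 and 9.19 CPM in the 18 rats.

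Rats of one group were close for most of the abundant members. The coefficient of variation within groups, pooled over the 3 groups, had a median of 11.6% over the 24 members above 100 CPM, of which 20 were under 15%. It was lowest for miR-300-3p (6.86%) and highest for miR-329-5p (41.8%), for which counting alone would give 1.82%. The high value of miR-329-5p came from 2 libraries. bPYX+GFP replicate 3 had 1433 CPM of miR-329-5p while the other bPYX+GFP rats had 436 to 582 CPM, and bPYX+NT3 replicate 5 had 1122 CPM while the others of its group had 414 to 586 CPM. These libraries were also the highest of their groups for miR-485-5p, a miRNA known to act at synapses, with 3765 and 3472 CPM, although bPYX+NT3 replicate 4 was close to the latter with 3447 CPM.

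**Figure D2:**
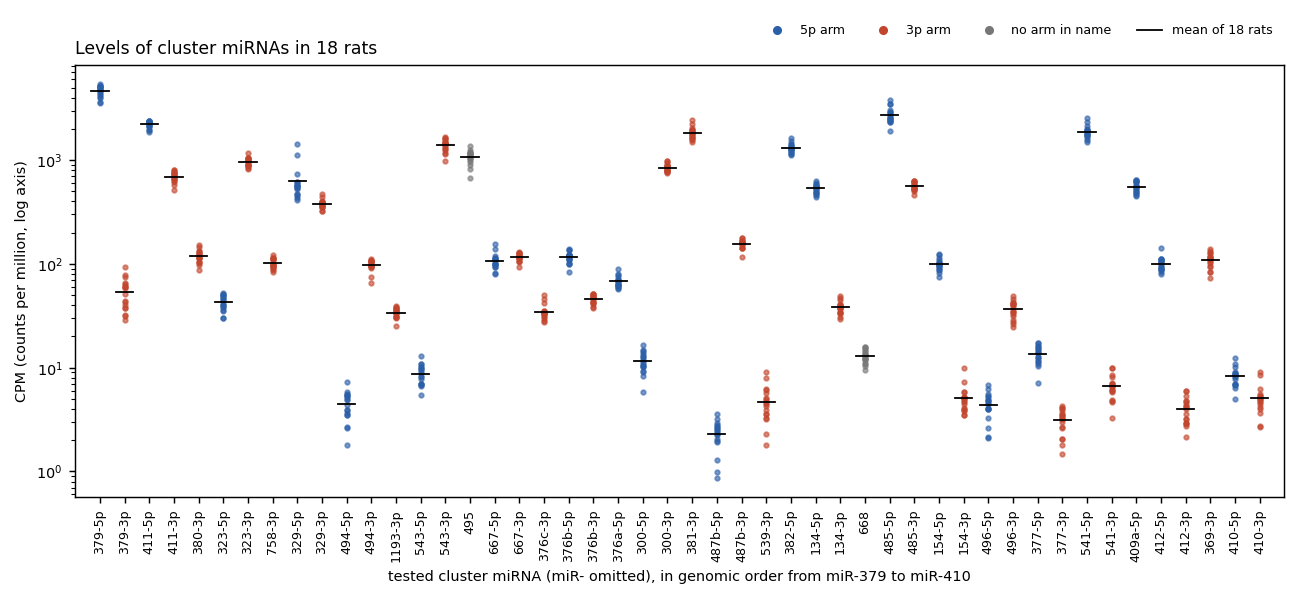
CPM (y axis, log scale) of the 48 tested cluster miRNAs in genomic order (x axis), 1 point per rat (18 per miRNA), coloured by arm, with a black line at the mean. The means run from 4644 CPM for miR-379-5p to 2.30 CPM for miR-487b-5p. Some neighbours are far apart, such as both arms of miR-379, and others overlap between rats, such as both arms of miR-667.

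Both arms were tested for 18 cluster hairpins, and most hairpins had 1 clearly higher arm. In the mean, 11 hairpins were higher in 5p and 7 in 3p. In 16 of the 18 hairpins the same arm was higher in all 18 libraries, and in 10 the arms were over 10-fold apart. Levels of arms are compared here as counts, with no correction for their sequences. The most unequal were miR-541, with a median of 99.6% of counts from 5p, miR-543, with 0.670% from 5p, and miR-379, with 98.9% from 5p. At the other end, 3 hairpins were under 2-fold apart. miR-667 gave a median of 46.6% from 5p and the 5p arm was higher in 6 of 18 libraries, miR-410 gave 63.9% and was higher in 17 of 18, and miR-329 gave 59.4% and was higher in 18 of 18.

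The first comparison, bPYX+GFP against naïve, asked what differed in the ganglia of injured rats that had received the control vector. miR-379-3p and miR-496-3p rose, and miR-381-3p fell. All 3 are 3p arms. miR-381-3p is among the 5 most abundant cluster miRNAs, whereas miR-379-3p and miR-496-3p were below 100 CPM in every rat. In edgeR, 3 of 48 members had an adjusted p under 0.05, against 2.41% of all 373 miRNAs tested. Of the 3, 2 were higher (1.07% of all tested) and 1 was lower (1.34%). An unadjusted p under 0.05 was found for 8 members (16.7%), against 21.2% of all miRNAs tested, with 5 higher (10.7% of all) and 3 lower (10.5%). The groups did not overlap for 4 members, against 4.02% of all tested. The median log2 fold change was 0.01 over the cluster and 0.00 over all miRNAs.

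miR-379-3p had 28.9, 38.8 and 44.3 CPM in the lowest, median and highest naïve rat. In bPYX+GFP rats it had 60.2, 69.1 and 93.8 CPM. Every bPYX+GFP rat lay above every naïve rat, and the highest was replicate 3. The log2 fold change was 0.94 ± 0.13 (SE), with an edgeR adjusted p of 0.00155 (6 of 6 rats above the naïve mean), and it was 0.85 without bPYX+GFP replicate 3. The counts of miR-379-3p behind it reached 207 reads in a naïve library and ran from 267 to 591 reads in bPYX+GFP libraries.

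The other arm of the same hairpin was level. miR-379-5p had 3560, 4873 and 5238 CPM in the lowest, median and highest naïve rat. It had 3946, 4829 and 5397 CPM in bPYX+GFP rats, and the groups overlapped over nearly their whole range. Its log2 fold change was 0.02 ± 0.10 (edgeR adjusted p = 0.951). miR-411-3p, the near-identical neighbour, was more abundant, with 708 ± 95.2 CPM in naïve and 698 ± 51.9 CPM in bPYX+GFP rats and a difference of -0.02 ± 0.09 on the log2 scale (edgeR adjusted p = 0.951).

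miR-381-3p had 1875, 2009 and 2448 CPM in the lowest, median and highest naïve rat. In bPYX+GFP rats it had 1502, 1655 and 1782 CPM. Every bPYX+GFP rat lay below every naïve rat, and the highest was naïve replicate 3. The log2 fold change was -0.35 ± 0.07 with an edgeR adjusted p of 0.0218. The call was lost without naïve replicate 4 (adjusted p = 0.0602) and without bPYX+GFP replicate 1 (adjusted p = 0.0532), and its adjusted p lay between 0.00248 and 0.0602 in all alternatives, which used edgeR or DESeq2.

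miR-300-3p, which differs from miR-381-3p at 1 seed base, had 836, 887 and 975 CPM in the lowest, median and highest naïve rat and 759, 782 and 883 CPM in bPYX+GFP rats. The difference on the log2 scale of -0.17 ± 0.06 did not pass adjustment (edgeR adjusted p = 0.122), and all 6 bPYX+GFP rats were below the naïve mean. miR-539-3p, with the seed of miR-381-3p, was far less abundant, with 4.98 ± 1.06 CPM in naïve and 3.96 ± 0.686 CPM in bPYX+GFP rats (difference -0.32 ± 0.19 on the log2 scale, edgeR adjusted p = 0.328). Among the 3, only miR-381-3p passed the adjusted test. All 3 log2 differences were negative, and whether the 3 miRNAs changed to unlike degrees was not tested.

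miR-496-3p had 24.9, 29.4 and 34.6 CPM in the lowest, median and highest naïve rat. It had 35.5, 41.1 and 45.6 CPM in bPYX+GFP rats, again with no overlap, although the highest naïve and the lowest bPYX+GFP rat were close. The log2 fold change was 0.45 ± 0.11 with an edgeR adjusted p of 0.0315. This call was the least secure of the 3. It was lost in 8 of 22 alternatives, with no detection filter and on leaving out naïve rat 3 or 4 or any bPYX+GFP rat but replicate 2, over an adjusted p range from 0.0057 to 0.0937. The 5p arm of miR-496 was at 4.27 ± 1.18 CPM in naïve and 4.67 ± 1.53 CPM in bPYX+GFP rats, a difference on the log2 scale of 0.13 ± 0.25.

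**Figure D3:**
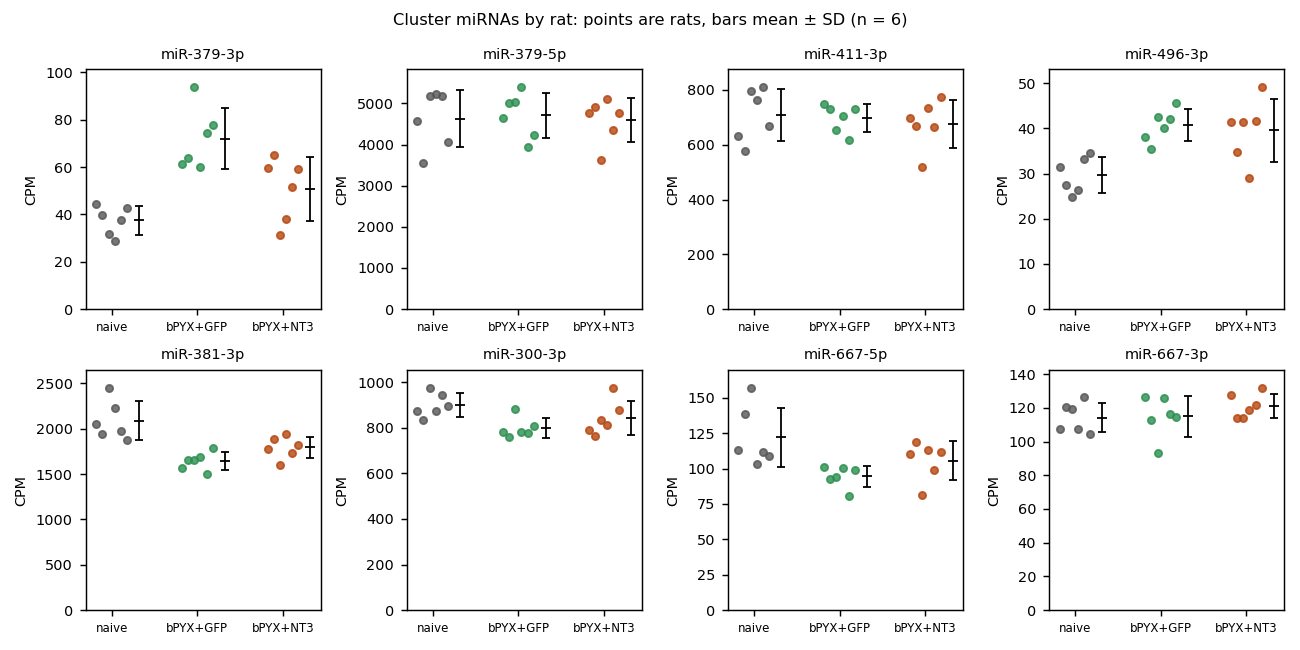
CPM (y axis, from 0) of 8 cluster miRNAs by group (x axis), 1 point per rat, with the mean and SD (n = 6) beside the points. The miR-379-3p and miR-496-3p points of bPYX+GFP rats lie above, and the miR-381-3p and miR-667-5p points below, all naïve points, while miR-379-5p, miR-411-3p, miR-300-3p and miR-667-3p overlap.

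A further 5 members had an unadjusted p under 0.05 and did not pass adjustment. miR-667-5p had 103, 112 and 157 CPM in the lowest, median and highest naïve rat and 80.5, 96.5 and 101 CPM in bPYX+GFP rats, with no overlap (log2 fold change -0.37 ± 0.11, edgeR adjusted p = 0.0806). miR-323-5p had 35.5, 38.6 and 45.7 CPM in naïve and 40.6, 49.5 and 52.1 CPM in bPYX+GFP rats, so the groups overlapped (0.30 ± 0.09, edgeR adjusted p = 0.0894). DESeq2, in which 23 of all 373 miRNAs passed adjustment, gave these 2 an adjusted p of 0.0304 and 0.0497. miR-382-5p, with 1209 ± 85.7 CPM in naïve and 1395 ± 134 CPM in bPYX+GFP rats, differed by 0.21 ± 0.07 on the log2 scale (edgeR adjusted p = 0.13). miR-369-3p, with 97.7 ± 12.4 and 114 ± 13.0 CPM, had 0.22 ± 0.10 (edgeR adjusted p = 0.232). Its unadjusted call was lost with library size only, TMM without cluster members, no filter, the edgeR likelihood ratio test or 3 groups fitted together. It was also lost without naïve replicate 1, 2, 3, 4 or 5 or without bPYX+GFP replicate 2, 4, 5 or 6. miR-300-3p, given above, was the remaining one.

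By arm, 3 of 21 tested 5p members had an unadjusted p under 0.05 and none an adjusted p under 0.05 in edgeR (2 in DESeq2, given above), and 5 of 25 tested 3p members had an unadjusted p under 0.05, 3 of which passed adjustment. These are 14.3% and 20% at the unadjusted threshold, both below the 21.2% of all miRNAs tested, of which 2.41% passed adjustment. Whether the arms differed as classes was not tested. A list of other miRNAs of the Dlk1-Dio3 region, such as miR-127 and miR-433, was made by name and may not be complete. Of its 21 tested miRNAs, 6 (28.6%) had an unadjusted p under 0.05 (21.2% of all tested), with 2 higher (10.7% of all) and 4 lower (10.5% of all). Of these 21, 1 passed adjustment (2.41% of all tested), which was lower. Their median log2 fold change was -0.04.

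The difference between the arms of a hairpin was tested directly, as the log2 ratio of 5p to 3p counts within each library, with limma over the 114 hairpins of the table with both arms tested. Library size and any change in the amount of hairpin cancel in this ratio. In bPYX+GFP against naïve the ratio fell for 1 of the 18 cluster hairpins, miR-379, against 6.14% of all 114 hairpins with an adjusted p under 0.05 in either direction. An unadjusted p under 0.05 was found for 3, against 21.1% of all.

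The log2 ratio of miR-379 was 6.48, 6.89 and 7.50 in the lowest, median and highest naïve rat. In bPYX+GFP rats it was 5.73, 6.00 and 6.48. The groups met at a single point, where the highest bPYX+GFP rat, replicate 4, was just above the lowest naïve rat, replicate 2. The mean fell from 6.94 ± 0.43 to 6.04 ± 0.34 (SD, n = 6), a difference of -0.90 ± 0.20 (SE) with a limma adjusted p of 0.0139. With an exact two-sided permutation test in place of limma, the adjusted p of miR-379 was 0.0548. 5p remained the dominant arm in every library.

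For miR-667, the hairpin with the most even arms, the mean log2 ratio was 0.08 ± 0.20 in naïve and -0.28 ± 0.18 in bPYX+GFP rats, a difference of -0.36 ± 0.12 (limma adjusted p = 0.0931). Its 3p arm was at 114 ± 8.81 CPM in naïve and 115 ± 12.0 CPM in bPYX+GFP rats. Without bPYX+GFP replicate 3 the adjusted p of the miR-667 ratio was 0.0367, and with both arms required to exceed 100 counts it was 0.0315. For miR-323 the ratio was -4.56 ± 0.09 in naïve and -4.33 ± 0.11 in bPYX+GFP rats, a difference of 0.23 ± 0.09 (limma adjusted p = 0.16). Its dominant arm, miR-323-3p, was at 926 ± 92.1 CPM without injury and 974 ± 52.2 CPM in the bPYX+GFP group. The log2 ratio of miR-496 was not among the 3 with an unadjusted p under 0.05. It ran from -3.20 to -2.40 in naïve and from -4.07 to -2.38 in bPYX+GFP rats, so the groups overlapped.

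**Figure D4:**
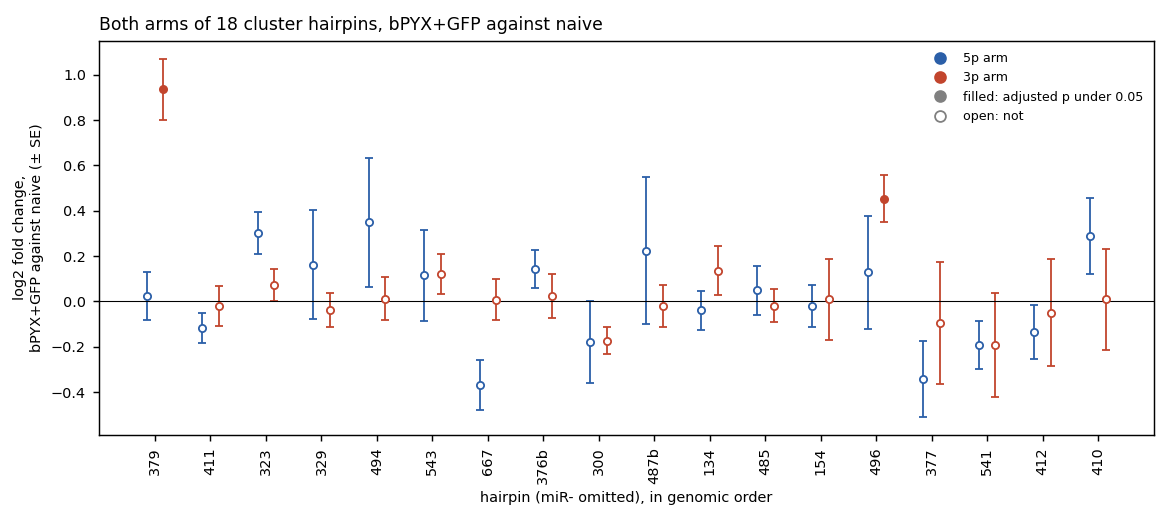
Log2 fold change of bPYX+GFP against naïve with its SE (y axis) for both arms of the 18 cluster hairpins with both arms tested (x axis, genomic order), with filled points for an edgeR adjusted p under 0.05. miR-379-3p (0.94) and miR-496-3p (0.45) are filled and stand above their 5p arms (0.02 and 0.13).

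The second comparison, bPYX+NT3 against bPYX+GFP, asked what differed with the encoded protein in injured rats. No cluster miRNA changed after adjustment, as no miRNA of the table did in edgeR (0.00% of 373), and no cluster miRNA had groups without overlap (0.00% of all tested). DESeq2 also gave none in the cluster. An unadjusted p under 0.05 was found for 2 of 48 members (4.17%), against 8.58% of all tested. Both were lower (3.49% of all) and none higher (5.09%). The median log2 fold change was 0.03 over the cluster and 0.00 over all miRNAs.

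These 2 were miR-379-3p and miR-543-3p. miR-379-3p had 31.2, 55.3 and 65.0 CPM in the lowest, median and highest bPYX+NT3 rat. All 6 were below the bPYX+GFP mean, but the 2 groups overlapped, as the lowest bPYX+GFP rat was at 60.2 CPM. The log2 fold change was -0.50 ± 0.16 (edgeR adjusted p = 0.217), and -0.41 without bPYX+NT3 replicate 3, the lowest rat.

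miR-543-3p had 1381, 1498 and 1683 CPM in the lowest, median and highest bPYX+GFP rat and 971, 1356 and 1462 CPM in bPYX+NT3 rats, with the lowest again in bPYX+NT3 replicate 3. Its log2 fold change was -0.22 ± 0.09 (edgeR adjusted p = 0.475). The unadjusted call of miR-543-3p was lost without bPYX+GFP replicate 2, bPYX+GFP replicate 3 or bPYX+NT3 replicate 5. Next in order was miR-381-3p, with 1604, 1796 and 1942 CPM in the lowest, median and highest bPYX+NT3 rat and a difference of 0.14 ± 0.07 on the log2 scale (edgeR adjusted p = 0.577). Of the 21 tested miRNAs of the list from the rest of the region, which may not be complete, 1 (4.76%) had an unadjusted p under 0.05. Over all tested miRNAs it was 8.58%.

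The arm ratio of 2 cluster hairpins had an unadjusted p under 0.05 in this comparison, against 12.3% of all 114. In limma no cluster hairpin passed adjustment, nor did any of the 114 (0.00%). By exact permutation no cluster hairpin passed either, but that test had little room to pass, as given above. The ratio of miR-379 was 6.54 ± 0.34 in bPYX+NT3 and 6.04 ± 0.34 in bPYX+GFP rats, a difference of 0.49 ± 0.19 (limma adjusted p = 0.257). That of miR-376b was 1.17 ± 0.25 in bPYX+NT3 and 1.48 ± 0.11 in bPYX+GFP rats, a difference of -0.31 ± 0.13 (limma adjusted p = 0.298). The arms of miR-376b were at 111 CPM (5p) in bPYX+NT3 rats and between 43.0 and 51.8 CPM (3p) in the same rats.

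The third comparison, bPYX+NT3 against naïve, set the NT3-treated injured rats against unoperated rats. No cluster miRNA passed adjustment in edgeR or DESeq2, as none of the table did in the main edgeR test (0.00%). Outside the cluster, 1 miRNA passed with each of the edgeR likelihood ratio test, DESeq2, TMM without cluster members and 3 groups fitted together. Without bPYX+NT3 replicate 1 there was also 1, and without bPYX+NT3 replicate 4 there were 4. No cluster miRNA had groups without overlap, against 1.34% of all tested. An unadjusted p under 0.05 was found for 4 members (8.33%), against 13.7% of all tested, with 3 higher (7.24% of all) and 1 lower (6.43%). All 4 are 3p arms. The median log2 fold change was 0.03 over the cluster and -0.01 over all miRNAs.

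miR-496-3p had 29.0, 41.4 and 49.2 CPM in the lowest, median and highest bPYX+NT3 rat, with 5 of 6 above the naïve mean (log2 fold change 0.42 ± 0.13, edgeR adjusted p = 0.191). miR-379-3p was higher by 0.43 ± 0.17 on the log2 scale (edgeR adjusted p = 0.319), with 5 of 6 rats above the naïve mean. miR-381-3p had -0.22 ± 0.08 (edgeR adjusted p = 0.277), with 6 of 6 rats below the naïve mean. miR-376c-3p, which the first comparison did not name, had 27.5, 32.1 and 34.3 CPM in the lowest, median and highest naïve rat and 33.3, 34.8 and 50.7 CPM in bPYX+NT3 rats (0.30 ± 0.12, edgeR adjusted p = 0.349). Its unadjusted call was lost with the edgeR likelihood ratio test and without naïve replicate 3 or 4 or bPYX+NT3 replicate 3 or 5. That of miR-379-3p was lost without naïve replicate 3 or 4 or bPYX+NT3 replicate 6. In the same list from the rest of the region 5 of 21 tested miRNAs (23.8%) had an unadjusted p under 0.05, against 13.7% of all tested.

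The arm ratio of miR-667 was the one with an unadjusted p under 0.05 in the cluster, against 18.4% of all hairpins. It was -0.21 ± 0.19 in bPYX+NT3 and 0.08 ± 0.20 in naïve rats, a difference of -0.29 ± 0.13 (limma adjusted p = 0.234). The ratio of miR-379 was 0.41 lower on the log2 scale in bPYX+NT3 than in naïve rats (difference -0.41 ± 0.21, limma adjusted p = 0.266).

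The 3 comparisons share libraries, and so their values are given side by side only. For miR-379-3p the log2 fold changes were 0.94 (bPYX+GFP against naïve), 0.43 (bPYX+NT3 against naïve) and -0.50 (bPYX+NT3 against bPYX+GFP). For miR-381-3p they were -0.35, -0.22 and 0.14 in the same order. For miR-496-3p they were 0.45, 0.42 and -0.03. The bPYX+NT3 mean of miR-379-3p and of miR-381-3p lay between the other 2 means, and that of miR-496-3p was close to bPYX+GFP, and none of the differences from bPYX+GFP passed adjustment.

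**Figure D5:**
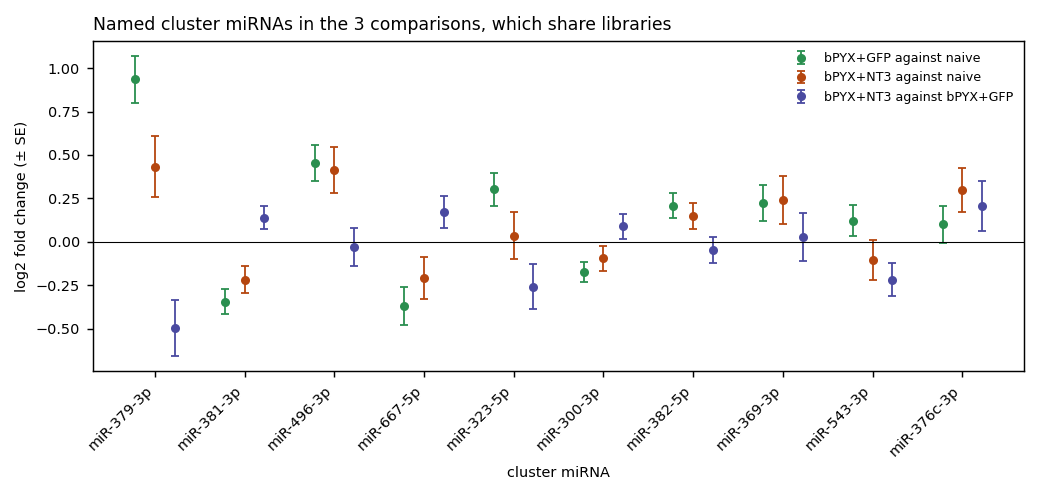
Log2 fold change with its SE (y axis) of the 10 cluster miRNAs named in any comparison (x axis), 1 colour per comparison. The comparisons share libraries. miR-379-3p has the widest spread, from 0.94 to -0.50.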

How the data were processed

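Ganglia of 18 rats gave 1 small RNA library each. The authors trimmed adapters, aligned reads to Rnor_5.0 with Bowtie2 and counted mature miRNAs with HTSeq-count, and the deposited values are raw counts per miRNA (submitters' processing notes: bcl2fastq 1.8.4, other versions not given in the sources used here). Reads given to no miRNA (5 totals) were left out. Low alignment quality removed 31.4 ± 1.88% of reads per library (SD, n = 18). This may affect miRNAs with near-identical copies, which was not tested. Copied PCR reads are not independent molecules, and precision from counts covers counting error only.

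MiRNAs with more than 10 counts in at least 6 libraries (373 of 753) were tested with edgeR 4.0.16 (TMM, quasi-likelihood F test, 12 libraries per comparison, Benjamini-Hochberg adjustment over 373) in R 4.3.3. The SE was derived from the F statistic. Arm ratios, log2 of 5p over 3p counts with a pseudocount of 0.5, were tested with limma 3.58.1 over 114 hairpins. All tests are two-sided. The methods were tested on simulated data. Alternatives included DESeq2 1.42.0. The study left out naïve replicate 1, which entered the tests here and was dropped as 1 alternative.

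Positions and sequences are from RefSeq (GRCr8). Members and lists were chosen with earlier results of these data known. Named miRNAs are those with an unadjusted p under 0.05 in a comparison, at least the 3 of smallest p, the 10 of highest mean CPM, and hairpins with an unadjusted arm ratio p under 0.05 or with the 3 most unequal or most equal arms. Further members were named beside these where sequence, seed or spread singled them out, after their values were seen.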

Additional observations from a re-analysis of the deposited data

Results flagged for a closer look

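In 81 groups of 6 rats (27 measures of named miRNAs and arm ratios, 3 groups each), a single rat stood far from the rest of its group in 3, where chance at 1 in 20 would give about 4.05. miR-323-5p in bPYX+GFP replicate 1 was at 40.6 CPM, with the next rat at 48.1 CPM. The log2 arm ratio of miR-376b in bPYX+GFP replicate 5 was 1.26, with the next at 1.50. The log2 arm ratio of miR-329 in bPYX+GFP replicate 3, the deepest library, was 2.16, with the next at 0.58.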

How the results depend on the processing

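Of 426 values of 21 single miRNA or arm ratio results, 411 kept direction and side of the adjusted p threshold. In 11 an adjusted call was lost, in 4 one was gained, and none reversed. Only miR-379-3p, miR-381-3p, miR-496-3p and the arm ratio of miR-379, all in bPYX+GFP against naïve, had such a call to lose. In this order it was lost in 0, 2 and 8 of 22 alternatives and in 1 of 16. Losses of an unadjusted call are not counted in these values. In bPYX+GFP against naïve the adjusted calls were 3 (9 of all 373 miRNAs) and became 5 with DESeq2 (23 of all 373). They ranged from 1 to 3 on leaving out 1 library, with 1 (miR-379-3p) without naïve replicate 4 or bPYX+GFP replicate 1 (3 of all 373 in each). The adjusted arm ratio calls were 1 of 18 cluster hairpins (7 of all 114 hairpins) in the main test. They were 2 with both arms above 100 counts and 0 by exact permutation, whose floor is given above. Leaving out 1 library gave 1 to 2 (2 without bPYX+GFP replicate 3). For arm ratios, calls over all hairpins were not counted in the alternatives, here and below. A move of the cluster's arm ratio calls therefore cannot be told from one of the whole table. In bPYX+NT3 against bPYX+GFP the unadjusted calls were 2 of 48 members (32 of all 373 miRNAs). They were 4 of 48 with library size only (32 of all 373) or with 3 groups fitted together (40 of all 373). With no filter they were 4 of 55 (54 of all 562), and with the filter of 100 counts 4 of 34 (26 of all 251). Leaving out 1 library gave 1 to 4 (24 to 54 of all 373). For arm ratios it gave 1 to 3 in place of 2 (14 of all 114 hairpins in the main test). In bPYX+NT3 against naïve the unadjusted calls were 4 of 48 members (51 of all 373 miRNAs). They were 8 of 48 with library size only (54 of all 373) and 7 of 34 with the filter of 100 counts (47 of all 251). On leaving out 1 library they ranged from 2 to 8. There were 8 without bPYX+NT3 replicate 4 (68 of all 373) and 2 without naïve replicate 3 (37 of all 373). Unadjusted arm ratio calls were 1 (21 of all 114 hairpins in the main test), 2 with a pseudocount of 5, and 0 to 2 on leaving out 1 library. The cause was not tested. The cluster share was 0.834, 0.824 and 0.836% of all reads in naïve, bPYX+GFP and bPYX+NT3 rats, and 1.92, 1.89 and 1.94% of miRNA counts without miR-379-5p.

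With the replicate number as a replicate block, adjusted calls stayed at 3, 0 and 0 (7, 0 and 0 of all 373 miRNAs). Unadjusted calls in the same order were 8, 3 and 4 (76, 39 and 48 of all 373). The unadjusted arm ratio calls of the cluster in bPYX+NT3 against naïve were 2, and those over all hairpins were not counted. The numbers do not pair the rats: same-numbered libraries correlated between -0.41 and 0.39, and at most 2 of 6 correlated best with their own number.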
